A study of Oryza sativa Japonica Group with 4 samples.

Results

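ITPK1 to ITPK6 are rice inositol phosphate kinases, enzymes of the ATP-grasp fold that add phosphate groups to the inositol ring. The family was looked up in the annotation of the Affymetrix GeneChip Rice Genome Array as every probe set assigned to 1 gene whose symbol or synonym is one of these 6 names, with or without the prefix Os. This rule found 5 of the 6 genes, with 6 probe sets, among 17905 genes and 57258 probe sets. ITPK3 has 2 probe sets and each of the others has 1, and none of the 6 is of a type that the array design marks as able to bind several transcripts. The 1 remaining name, ITPK6, was not found in the gene table, and ITPK6 is not analysed here. The family was chosen by the measured difference of ITPK4 between glutamate-treated and untreated roots, so every difference between these groups is given for the ITPK genes as a description, without a test.

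The roots came from seedlings of the japonica rice variety TNG67, raised in the dark for germination and then in hydroponic solution without nitrogen. At the age of 17 days the seedlings stayed without nitrogen (−N) or were treated with 2.5 mM glutamate (+Glu) for 30 min. All 4 samples came from nitrogen-starved plants, and the solutions differed in glutamate. The paper calls −N the untreated control of the arrays. It describes a move to fresh −N solution for the amino acid measurements, but does not state one for the arrays. There were 2 biological replicates per group, and the labels do not say how many plants each one holds. The question of the comparison was which genes respond to glutamate within this short time.

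Inositol phosphate kinases work on the route from inositol to phytic acid, the fully phosphorylated inositol that plants use to store phosphate, and some members of the family also act on phytic acid itself. In Arabidopsis an ITPK makes an inositol pyrophosphate from phytic acid, and such pyrophosphates bind SPX domain proteins that hold back the phosphate starvation response. Of the rice genes, ITPK2 is also listed as DSM3, a gene known for its part in drought and salt tolerance. ITPK4 lies on chromosome 2, ITPK2 and ITPK3 on chromosome 3, and ITPK1 and ITPK5 on chromosome 10.

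Values are intensities in linear units, with 1 value for each probe set on each array. Differences are on the log2 scale, +Glu minus −N, with standard errors from limma. For the ITPK genes limma was fitted over all 57258 probe sets. For the other genes it was fitted over all 17905 genes, each represented by its brightest probe set. Probes differ in how strongly they bind, so the level of 1 ITPK gene was not set against that of another. The median intensity of the arrays was 20.1 and 19.3 for replicate 1 of −N and +Glu, and 23.9 in both groups for replicate 2. Exactly identical values occurred only between arrays of the same replicate number, for 2108 probe sets between both arrays of number 1 and 2410 between both arrays of number 2, and for 0 probe sets in the other 4 pairs of arrays. None of the 6 ITPK probe sets was among them. Differences within a replicate number are therefore given beside the means. Of the measured root genes NAS1 was left out, as responsive to glutamate in earlier results. The others, those for the silicon transporters LSI1 and LSI2 and 2 more, had a summed intensity of 8661 and 12726 in −N and 9515 and 11234 in +Glu. The summed intensity of 7 genes typical of green tissue was 12318 and 18252 in −N and 16737 and 14238 in +Glu. Among the green-tissue genes the chlorophyll a/b binding protein gene CAB2R had intensities of 8748 to 10778, so the roots were not without such transcripts. RBCS and RBCS1, both for a small subunit of Rubisco, differed. RBCS was at 309.7 to 1193, and RBCS1 was at 4.01 to 4.91, near the lowest intensities of the table. The probe sets of CAB2R and RBCS are of a type that can bind related transcripts.

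ITPK4 was the 1 member with a difference of at least 2-fold. Untreated roots gave intensities of 73.5 (replicate 1) and 31.2 (replicate 2), and treated roots 134.1 (replicate 1) and 175.3 (replicate 2). The groups did not overlap, and the lower +Glu array was 1.83-fold above the higher −N array. The −N mean was 52.4 ± 29.9 (SD, n = 2) and the +Glu mean 154.7 ± 29.1 (SD, n = 2), a log2 difference of 1.68 (standard error 0.44) or 3.20-fold. Among all 17905 genes 85 had a larger log2 difference, and 1.9% were at least 2-fold higher. ITPK4 was chosen for this value, and nothing is read from its place among the genes. In whole roots, more RNA per cell and more cells that express the gene cannot be told apart.

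The size of the ITPK4 difference depended on the replicate. Within replicate 1 the +Glu array was 1.83-fold above the −N array, a log2 difference of 0.87, and within replicate 2 it was 5.62-fold, or 2.49. The larger part of this gap lay in the untreated roots, where the −N arrays were 2.35-fold apart with replicate 1 higher, while the +Glu arrays were 1.31-fold apart with replicate 2 higher. A gap of at least that size between the −N arrays, in either direction, was found in 4.66% of all genes. The share with replicate 1 higher by that much was not counted. Over all genes the median log2 difference of replicate 2 minus replicate 1 was 0.31 in −N and 0.21 in +Glu. The 7 green-tissue genes also differed between the −N arrays: 6 were higher in replicate 2, the array with the lowest ITPK4 value. In +Glu 2 were higher in replicate 2, RBCS and RBCS1, and RBCS1 read only 4.88 and 4.91. The 4 root genes were higher in replicate 2 in both groups. NAS1, left out of these 4, read 30.3 and 101.1 in −N replicates 1 and 2 and 317.5 and 224.8 in +Glu. The share of all genes higher in replicate 2 was not counted. The part of the green-tissue and root genes in the ITPK4 difference was not tested. The log2 difference was 2.30 without −N replicate 1 and 1.06 without −N replicate 2.

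**Figure D1:**
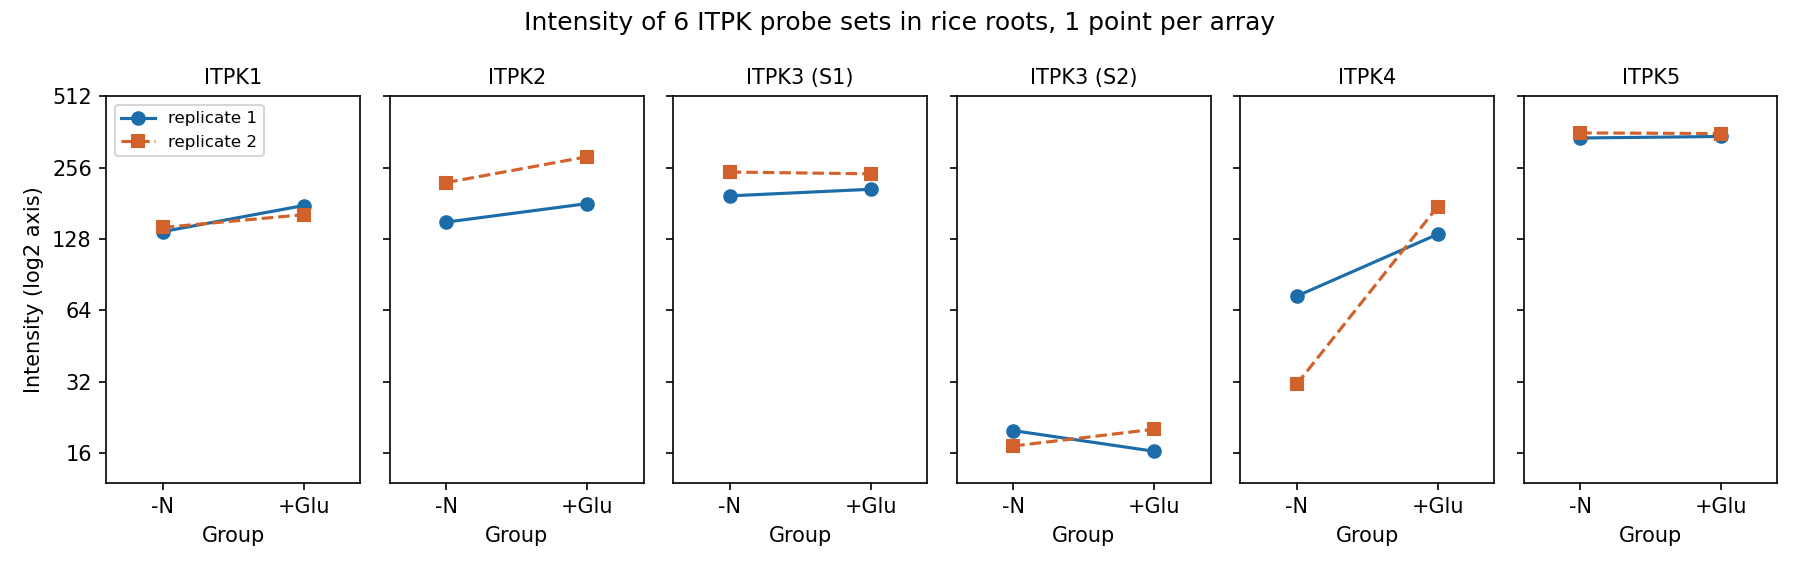
Intensity (log2 axis) of each ITPK probe set in −N and +Glu roots, 1 point per array, with a line joining the arrays of the same replicate number. S1 and S2 are both probe sets of ITPK3, and levels are not comparable between panels. The ITPK4 lines climb from 73.5 to 134.1 and from 31.2 to 175.3, whereas ITPK5 stayed between 342.0 and 359.3.

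The 4 measured paralogs had log2 differences between 0.0062 and 0.31, with a median of 0.15 beside 0.026 over all genes. In 3 of the 4 the groups overlapped. The ITPK4 difference exceeded the paralog median by 1.53 on the log2 scale, by 0.69 within replicate 1 and by 2.40 within replicate 2. The highest paralog difference within a replicate was 0.37 in replicate 1 and 0.36 in replicate 2, below the ITPK4 difference of 0.87 and 2.49 in the same arrays.

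ITPK1 was the paralog whose groups did not overlap. Its intensity was 137.7 and 143.3 in −N replicates 1 and 2, and 177.4 and 162.3 in the +Glu replicates. The means were 140.5 ± 3.98 (SD, n = 2) and 169.9 ± 10.7 (SD, n = 2), a log2 difference of 0.27 (standard error 0.21) or 1.21-fold. The lower +Glu array exceeded the higher −N array by 1.13-fold. After quantile normalization its log2 difference was 0.18 and the groups overlapped. Counting ITPK1 and ITPK4, 2 of the 5 members had non-overlapping groups with +Glu higher and 0 had non-overlapping groups with +Glu lower, beside 14.9% and 10.1% of all genes. Since the family was chosen from this contrast, nothing is read from these shares.

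ITPK2 varied more by replicate number than by treatment. Its intensity was 151.0 in −N replicate 1 and 180.7 in +Glu replicate 1, against 221.7 in −N replicate 2 and 285.1 in +Glu replicate 2. Both replicate 2 arrays were above both replicate 1 arrays, by 1.47-fold in −N and 1.58-fold in +Glu. In 4.81% of all genes replicate 2 was higher by at least as much in both groups, and the median log2 difference of replicate 2 minus replicate 1 over all genes was 0.31 in −N and 0.21 in +Glu. Within a number the +Glu array was higher than the −N array, by a log2 difference of 0.26 in replicate 1 and 0.36 in replicate 2. The difference of means was 0.31 (standard error 0.33). It was smaller than the spread between replicates, as the −N mean was 186.4 ± 50.0 (SD, n = 2) and the +Glu mean 232.9 ± 73.8 (SD, n = 2). Without +Glu replicate 2 it was −0.018, and without +Glu replicate 1 it was 0.64.

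ITPK5 was the steadiest member. Its intensity was 342.0 and 359.3 in −N replicates 1 and 2 and 347.1 and 357.2 in the +Glu replicates, so the highest array was 1.05-fold above the lowest. The log2 difference was 0.0062 (standard error 0.21), and its sign turned after quantile normalization (−0.072). The second replicate was slightly higher in both groups.

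The brighter probe set of ITPK3 read 194.9 and 245.7 in −N replicates 1 and 2 and 207.8 and 241.4 in the +Glu replicates. Both groups covered the same range, and again the replicate 2 arrays were higher. The log2 difference was 0.034 (standard error 0.24), and it was −0.056 after quantile normalization. The other probe set of ITPK3 was dim, at 19.9, 17.1, 16.3 and 20.2 in the same order of arrays, close to the array medians. It moved down within replicate 1 (log2 −0.29) and up within replicate 2 (0.23), with a difference of means of −0.027. Detection calls were not among the values, so it is not known if this dim probe set lay above background.

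**Figure D2:**
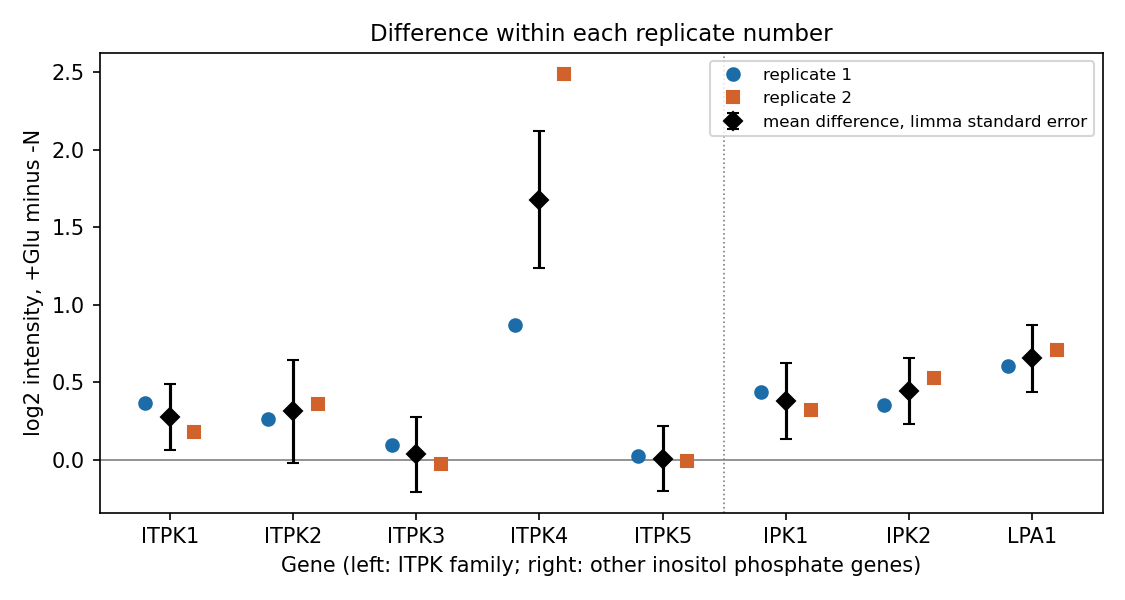
Difference of log2 intensity, +Glu minus −N, for 5 ITPK genes and 3 other genes of inositol phosphate metabolism (right of the dotted line). Circles and squares are the differences within replicates 1 and 2, and diamonds with bars are the means with limma standard errors. The standard errors come from a fit over all probe sets left of the dotted line and over all genes right of it. ITPK3 is shown by its brighter probe set, and its dim one (−0.29 and 0.23 within replicates 1 and 2) is left out. ITPK4 stands at 0.87 and 2.49, and the other 7 genes as shown lie between −0.025 and 0.71.

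The measured neighbours of ITPK4 on chromosome 2, 2 genes on each side in the gene table, had log2 differences from −0.24 to 0.062. The gene table gives none of these 4 a name.

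The other genes of inositol phosphate metabolism that could be found by name were few. Of IPK1, which encodes the kinase that completes phytic acid, IPK2, an inositol polyphosphate kinase, and LPA1, a gene whose loss lowers phytic acid in rice seeds, all 3 were higher in +Glu with no overlap between the groups, an order found in 14.9% of all genes. These genes were looked up with earlier results of these data known, so nothing is read from this share. The intensity of LPA1 was 288.2 and 306.8 in −N replicates 1 and 2 and 437.2 and 500.2 in the +Glu replicates. The log2 difference of LPA1 reached 0.65 (limma over all genes: standard error 0.22, unadjusted p = 0.0271, adjusted p = 0.991), and it was similar within both replicates, 0.60 and 0.71. LPA1 kept a log2 difference of 0.56 to 0.75 with 1 array left out, but its unadjusted p was 0.226 when +Glu replicate 2 was omitted, 0.115 when +Glu replicate 1 was and 0.0661 when −N replicate 1 was.

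IPK2 read 161.9 and 160.6 in −N and 206.9 and 231.3 in +Glu, with a log2 difference of 0.44 (unadjusted p = 0.0894 in limma). The −N arrays were nearly equal, and both +Glu arrays stood clear of them. With the replicate number as a block the unadjusted p of IPK2 was 0.0414. IPK1 read 320.2 and 407.8 in −N and 433.3 and 509.9 in +Glu, with a log2 difference of 0.38 (unadjusted p = 0.176). The lower +Glu array of IPK1 was close above the higher −N array. The median log2 difference of these 3 genes was 0.44, above that of the ITPK paralogs and below ITPK4. After quantile normalization and after median centring both +Glu arrays of the 3 genes were still above both −N arrays. The other alternatives could not change this order or left the values of these genes as they were.

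Genes at the start of the route and beside it had overlapping groups. RINO1, the gene for the synthase that makes inositol phosphate from glucose phosphate, read 370.6 and 589.6 in −N and 537.9 and 571.4 in +Glu. The −N replicates of RINO1 enclosed both +Glu arrays, and the log2 difference was 0.25 (unadjusted p = 0.434). PIPK1, a phosphatidylinositol phosphate kinase gene of the lipid branch, had a log2 difference of 0.097 (unadjusted p = 0.755). ABCC13, the transporter gene also listed as MRP5 and LPA2, had 0.042 (unadjusted p = 0.92), with −N arrays at 166.3 and 315.8.

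SPX domain proteins, the PHR transcription factors that they bind, and phosphate transporters carry the response to phosphate supply. Of 19 such genes, 3 were higher in +Glu without overlap, 3 were lower without overlap and 13 overlapped. Of all genes, 14.9% were higher and 10.1% lower in this way, so that 3 of 19 in each direction is no result about these genes. The 4 other SPX genes had log2 differences from −0.020 to 0.10, and SPX2 had −0.38 (unadjusted p = 0.316). The SPX2 value rested on single arrays: it was 0.065 when −N replicate 2 was left out and −0.82 (unadjusted p = 0.0131) when −N replicate 1 was. Both arrays of replicate 1 held the same intensity, 193.1. The transporter genes PT4, PT1 and PT8 were the 3 higher ones. For PT1 this rested on a probe set of a cross-binding type: its log2 difference was 0.50 (unadjusted p = 0.0654), but −0.30 without such probe sets and 0.10 as the mean of its probe sets. PT4 read 134.8 and 159.4 in −N and 230.0 and 274.3 in +Glu, a log2 difference of 0.78 (standard error 0.23; unadjusted p = 0.0184 and adjusted p = 0.904 in limma over all genes). When a +Glu array was omitted its unadjusted p was 0.0698 (replicate 1) or 0.169 (replicate 2), and its probe set is of a type that can bind related transcripts. PHR3 was lowest, at 440.1 and 536.2 in −N and 310.3 and 350.2 in +Glu (log2 −0.56, unadjusted p = 0.0561 in limma). The other limma fits with all 4 arrays gave PHR3 an unadjusted p of 0.0103 (quantile normalization) to 0.0559 (no cross-binding probe sets). With the replicate number as a block it was 0.0167. With 1 array left out the log2 difference of PHR3 was −0.70 to −0.42. PHR1 and PHR2 had log2 differences of 0.027 and −7.3e-05.

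Over the 26 genes of these lists the median log2 difference was 0.056, against 0.026 for all genes. An unadjusted p under 0.05 in limma was reached by 2 of the 26 in the higher direction, LPA1 and PT4, and by 0 in the lower, beside 3.81% and 0.374% of all genes. The lists were chosen with earlier results of these data known, so nothing is read from these shares. At the thresholds of the methods, at least 2-fold with an unadjusted p under 0.05, 0 of the 26 passed, beside 1.68% of all genes higher and 0.0447% lower. After Benjamini-Hochberg adjustment 0 of the 26 and 0% of the 17905 genes passed, against 682 higher and 67 lower genes before adjustment. A test of each gene on its own variance, adjusted in the same way, also called 0 genes. An exact two-sided permutation test of 2 against 2 arrays cannot give a p below 0.333.

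**Figure D3:**
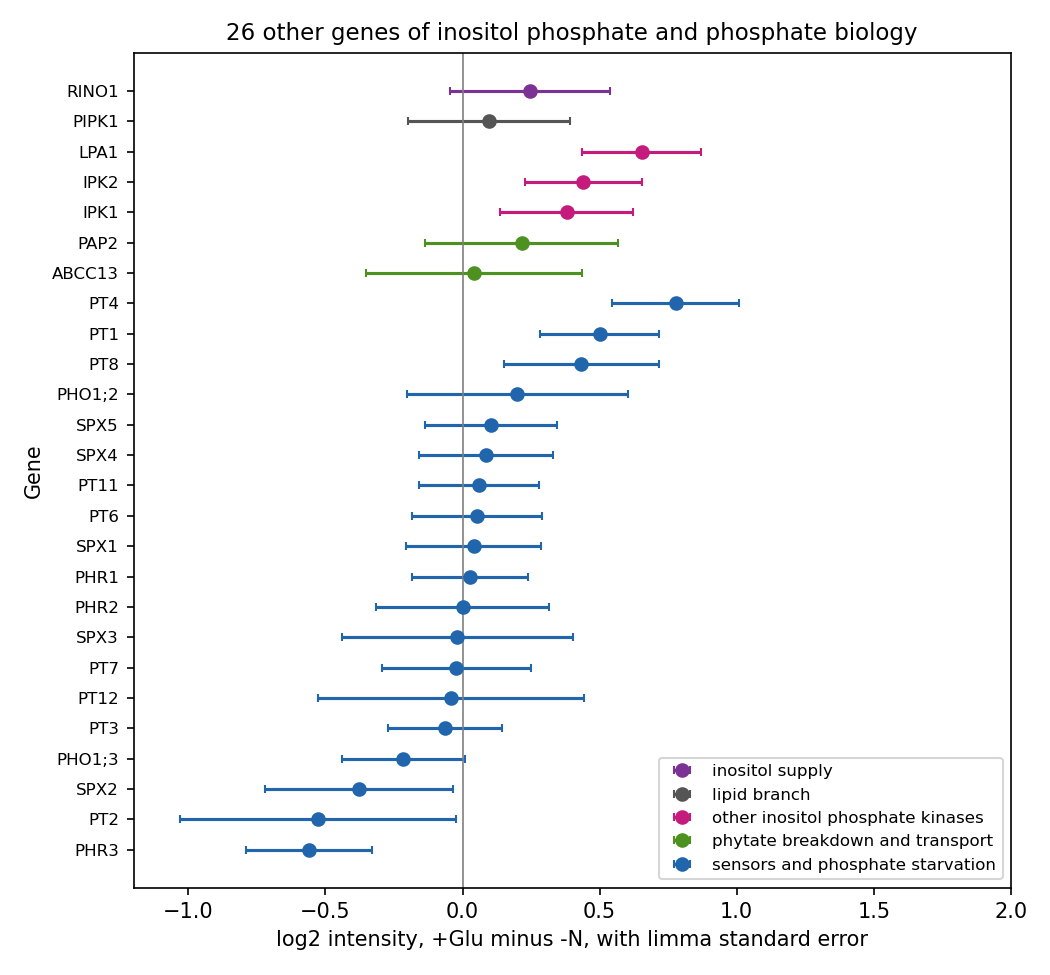
Difference of log2 intensity, +Glu minus −N, for 26 other genes of inositol phosphate and phosphate biology, with limma standard errors and coloured by list. PT4 (0.78) and LPA1 (0.65) lie farthest to the right and PHR3 (−0.56) farthest to the left, and none reaches the 1.68 of ITPK4.

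Genes with a profile like that of ITPK4 were found by the root mean square difference of log2 intensities, each centred on the gene's own mean over the 4 arrays, among 2430 other genes with a name. The closest was CAD6, a cinnamyl alcohol dehydrogenase gene, at 0.069, followed by the calmodulin-like gene CML15 (0.075), the jasmonate repressor gene JAZ9 (0.10), a gene listed as chitinase (0.16) and the lipoxygenase gene CM-LOX2 (0.17). CAD6 read 562.2 and 246.0 in −N and 1010 and 1214 in +Glu, and CML15 read 287.6 and 135.3 in −N and 603.5 and 725.4 in +Glu. As with ITPK4, −N replicate 2 was the lowest array and +Glu replicate 2 the highest in each of the 5. Since the 5 were picked for closeness to ITPK4 on these same arrays, nothing is read from that shared order. Of all 17904 other genes, 16 were at least as close as CM-LOX2. Likeness over 4 arrays is a description only. Without −N replicate 2, 0 of these 5 genes were among the closest 5, whereas 4 were among them without −N replicate 1.

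**Figure D4:**
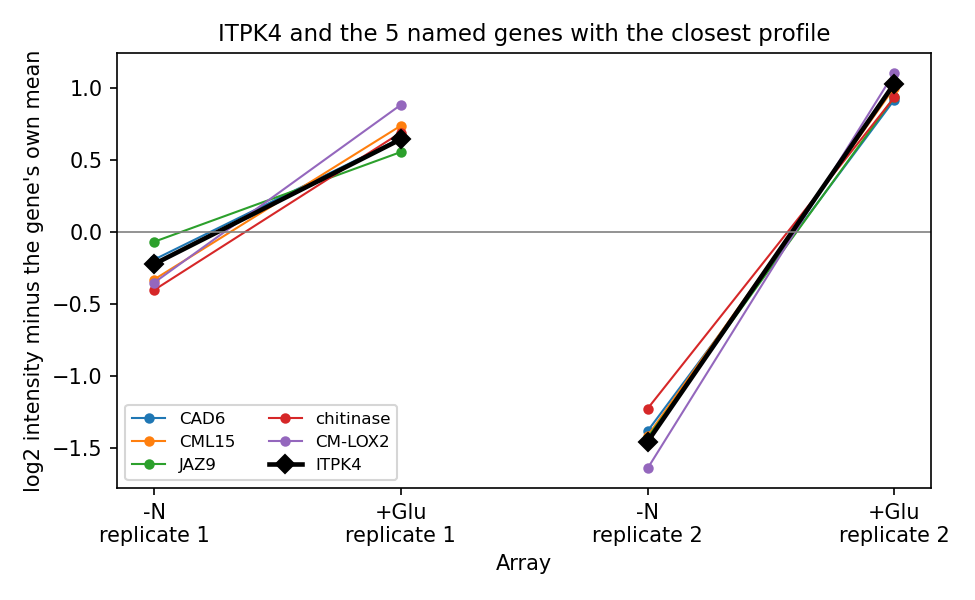
Log2 intensity minus each gene's own mean over 4 arrays, for ITPK4 (black) and the 5 named genes with the closest profile, with lines joining the arrays of 1 replicate number. All 6 genes were lowest in −N replicate 2 and highest in +Glu replicate 2, the 5 having been picked for likeness to ITPK4.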

How the data were processed

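RNA from 4 root samples, 2 per group, was hybridized to 1 array each. The authors deposited linear intensity values, from 3.15 to 21379; GCOS and RMA are named in the submitters' notes, and their versions, order and settings are not given in the sources. For arrays there is no read depth, and their number limits the precision. After 123 Affymetrix controls were left out, log2 was taken without a pseudocount and tested in R 4.3.3 with limma 3.58.1 (lmFit, eBayes) over 17905 genes, each by its brightest single-gene probe set, with Benjamini-Hochberg adjustment. The script was tested on simulated data. Figures used Python 3.11.15, pandas 2.3.3 and matplotlib 3.10.9. Names came from RefSeq's gene table (assembly ASM3414082v1), where 5 ITPK genes matched; the array's genome build is not given, so no coordinates are printed. The members and lists were chosen with earlier results of these data known. Named are all members, list genes past the thresholds or at the ends of a list, and the 5 closest profiles; IPK1, IPK2, RINO1, PIPK1, ABCC13, PT1, PT8, PHR1, PHR2 and SPX2 were named after their values were seen. From the lists 3 matches were dropped, since their other synonyms name different proteins (2 signal peptide peptidases and a growth-regulating factor); this was decided after their values could be seen. NAS1 was left out of the root genes, as glutamate-responsive in earlier results. Alternatives were a replicate block, each array left out, quantile normalization, median centring, 2 filters on dim probe sets (mean log2 of at least 5; above the median), no cross-binding probe sets, the mean of a gene's probe sets, a pseudocount of 16 and Student's t-test; for the listed genes and the closest profiles they were added after seeing the data.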

Additional observations from a re-analysis of the deposited data

How the results depend on the processing

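The log2 difference of ITPK4 was 1.06 to 2.30 with 1 array left out. In the other alternatives it was 1.38 (pseudocount of 16) to 1.71 (median centring). Its sign could not turn when an array was left out, since the groups do not overlap. ITPK4 was chosen for this difference, so nothing is read from its sign. The paralog median was −0.016 to 0.25 with 1 array left out and 0.062 to 0.18 otherwise. The count of members with both +Glu arrays above both −N arrays was 2 to 5 with 1 array left out, 5 being without −N replicate 2, and 1 after quantile normalization. Leaving out an array can keep or raise such a count but not lower it, and the share of all genes was not counted in these settings. The median log2 difference over all genes was 0.20 without −N replicate 2 and −0.13 without −N replicate 1. Nothing is therefore read from these counts. In limma 301 genes were at least 2-fold higher at an unadjusted p under 0.05, against 196 to 618 with 1 array left out and 105 with Student's t-test; 8 were lower, against 14 to 252 with 1 array left out. After adjustment 0 genes passed, against 0 to 604 with 1 array left out, where the lone array is assumed to vary like the other group, and 1 after median centring. The cause was not tested. Arrays of the same number deviated together from their group means (r = 0.43 across genes, which are not independent replicates), but the labels do not say that a number marks a shared batch, and there are only 2 pairs. With the replicate number as a block 332 genes were at least 2-fold higher and 15 lower at an unadjusted p under 0.05, and 0 passed after adjustment; the ITPK4 difference was again 1.68 and ITPK1 to ITPK5 kept their values, since the design is balanced.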
